A study of Mus musculus with 108 samples.

Results

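The reporter fragments described here were recovered from undifferentiated mouse embryonic stem (ES) cells, and those from YFP-positive cells were set against those from YFP-Negative cells. The libraries were chosen by their titles, which gave 19 ES samples of the 95 sorted samples and of the 108 samples in the whole series. They comprised 5 Negative samples and 14 YFP-positive samples. Each of replicates 1 to 4 was sorted into a Negative gate and 3 gates of rising YFP called Low, Medium and High, whereas in replicate 5 the upper pair was kept together as Medium/High. Within each replicate the Low, Medium, High and Medium/High lists were joined into 1 positive set, which gave 5 positive and 5 Negative sets. Distal fragments, which the authors placed more than 1.5 kb from a transcription start, and promoter fragments were deposited apart and were kept apart.

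In this assay, pieces of open chromatin cut out by the Tn5 transposase were cloned upstream of the HSP68 minimal promoter and a Venus-YFP gene. The constructs were recombined into the Hprt locus of HM-1 cells, an ES cell line in which this locus does not work, and the recombination also repaired it. Every ES sample, Negative gate included, therefore came from HM-1 cells of 1 line that carried a reporter at the same place and had been selected for the repaired locus. No RNA was measured in these samples, so the identity of the cells was not checked here. No treatment separated the groups, and only the YFP gate did. The starting fragments had been taken from all 5 stages of blood differentiation, which are ES cells, hemangioblasts (HB), both stages of hemogenic endothelium (HE1 and HE2) and hematopoietic progenitors (HP). The labels do not say whether replicates were separate transfections, so the p-values below measure the spread between these samples, which may in part be technical.

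An enhancer is a stretch of DNA that binds transcription factors and raises transcription from a promoter that can lie far away. A promoter lies at the transcription start and can also act as an enhancer when placed next to another promoter. Mouse ES cells are held in the pluripotent state by POU5F1, SOX2, NANOG, KLF factors and ESRRB together with the cytokine LIF, while GATA2, TAL1 and RUNX1 act later in blood specification. A fragment that sits upstream of a minimal promoter scores in this assay when the cell that carries it makes YFP.

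The loci of this comparison are shown first as sequence, on the plus strand of mm10 (GRCm38). These 4 stretches of 150 bp are centred on the bases that the largest number of positive fragments covered, in the distal sites with the largest excess of positive over Negative replicates that lay outside annotated untranslated regions. Capitals mark a short motif out of the 17 searched on both strands, and lower case marks the rest.
Ap3m2 site, chr8:22808330-22808479: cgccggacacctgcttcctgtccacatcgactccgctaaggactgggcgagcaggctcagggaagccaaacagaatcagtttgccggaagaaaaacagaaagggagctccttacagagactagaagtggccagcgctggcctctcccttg
Mmd2 site, chr5:142581681-142581830: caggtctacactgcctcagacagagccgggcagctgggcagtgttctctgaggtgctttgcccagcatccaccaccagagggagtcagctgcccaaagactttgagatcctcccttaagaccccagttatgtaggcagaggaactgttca
Gata2 site, chr6:88189847-88189996: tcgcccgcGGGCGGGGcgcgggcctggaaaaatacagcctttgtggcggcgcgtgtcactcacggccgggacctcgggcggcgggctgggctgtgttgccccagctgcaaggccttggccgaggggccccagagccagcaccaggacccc
Nkain1 site, chr4:130520285-130520434: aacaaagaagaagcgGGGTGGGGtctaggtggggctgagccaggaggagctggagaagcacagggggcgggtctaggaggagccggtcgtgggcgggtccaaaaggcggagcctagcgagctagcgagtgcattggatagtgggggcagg
The capitals in the Gata2 stretch are a GC box (CCCCGCCC, bound by SP1-family factors) read on the opposite strand, and those in the Nkain1 stretch are a KLF motif (CCCCACCC), also on the opposite strand. The stretches near Ap3m2 and Mmd2 held none of the 17 motifs. Among all positive distal fragments, of about 200 bp in median length, a GC box was in 8.16% and a KLF motif in 8.15%. The GC content was 74.0% in the Gata2 stretch, 64.7% in the Nkain1 stretch, 57.3% in the Ap3m2 stretch and 56.0% in the Mmd2 stretch.

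Identical fragments, with the same start and end, were the second way of finding what scored. The 5 fragments below were among those found in the largest number of positive samples and in no Negative sample. They are exact inserts of YFP-positive cells, and those shown each held a motif and lay outside annotated untranslated regions. The fragments in Sptbn1, near Sox11, in Ciapin1, at Malsu1 and at Gfpt2 met the same rule, held none of the 17 motifs and are not shown.
Adgrl2 fragment, chr3:149349303-149349418: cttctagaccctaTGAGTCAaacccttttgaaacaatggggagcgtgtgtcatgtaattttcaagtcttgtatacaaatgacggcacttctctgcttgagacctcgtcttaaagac
Ergic1 fragment, chr17:26638938-26639135: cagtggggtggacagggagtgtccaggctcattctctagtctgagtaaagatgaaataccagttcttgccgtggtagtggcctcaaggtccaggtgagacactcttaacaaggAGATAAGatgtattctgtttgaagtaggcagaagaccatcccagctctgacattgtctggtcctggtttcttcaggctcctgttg
Las1l fragment, chrX:95968704-95968920: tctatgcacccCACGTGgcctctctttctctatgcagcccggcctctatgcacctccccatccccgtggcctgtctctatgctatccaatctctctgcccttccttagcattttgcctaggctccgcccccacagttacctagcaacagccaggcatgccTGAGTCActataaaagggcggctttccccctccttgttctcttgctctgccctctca
Zfpm1 fragment, chr8:122281892-122282115: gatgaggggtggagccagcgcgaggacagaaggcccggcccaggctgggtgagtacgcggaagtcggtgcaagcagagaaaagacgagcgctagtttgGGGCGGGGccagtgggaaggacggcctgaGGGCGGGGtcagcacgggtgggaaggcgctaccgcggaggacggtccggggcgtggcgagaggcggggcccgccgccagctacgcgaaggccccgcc
Atxn7l3 fragment, chr11:102297126-102297246: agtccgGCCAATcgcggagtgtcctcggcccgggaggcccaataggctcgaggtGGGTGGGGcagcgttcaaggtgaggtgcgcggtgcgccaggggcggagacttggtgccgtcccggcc
Capitals again mark motifs. The Adgrl2 fragment, in an intron of a non-coding gene far from any coding start, held an AP-1 motif (TGANTCA). The Ergic1 fragment lay in an intron of Ergic1 and held a GATA motif (AGATAAG). The Las1l fragment lay 11791 bp upstream of Las1l and held an E-box (CACGTG, bound by MYC and related factors) and an AP-1 motif. The Zfpm1 fragment ended 26 bp upstream of the start of Zfpm1, the gene of the GATA cofactor FOG1, and held a pair of GC boxes. The Atxn7l3 fragment lay 495 bp upstream of Atxn7l3, a gene of the SAGA deubiquitinase module, and held a CCAAT box (GCCAAT, bound by NF-Y) and a KLF motif. In all positive distal fragments AP-1 motifs were in 8.73%, E-boxes in 5.08% and GATA motifs in 1.75%, and in all positive promoter fragments CCAAT boxes were in 16.6% and KLF motifs in 7.84%.

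The ES lists differed widely in length. The 19 samples held 882 to 60620 listed fragments (median 15102), in all 371599. The positive sets of replicates 1 to 5 held 99945, 103317, 29162, 5142 and 2185 distinct fragments, and the Negative sets held 23322, 44108, 18728, 1670 and 880. The positive set, which joined several gate lists against 1 Negative list, was thus the longer one in 5 of 5 replicates. Single samples held a median of 11810 fragments in the positive gates and 18733 in the Negative gate. Replicates 4 and 5 were short in both sets. The lists give each fragment without a number of reads, so the read depth behind a fragment is unknown, and list length stands in for it.

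Some samples shared fragments across gates and replicates before any comparison was made. In replicate 2, 45.0% of the Negative fragments were also in the positive set, and in replicate 4 the share was also 45.0%. In replicates 1, 3 and 5 it was 9.38%, 4.26% and 16.5%. The positive sets of replicates 1 and 2 had 36016 fragments in common, 36.0% of the first and 34.9% of the second, while their Negative sets had 753 in common, 3.23% of the first and 1.71% of the second. The Negative sample of replicate 2 shared 31.7% of the shorter list with the Medium sample of replicate 1, and the Negative sample of replicate 5 shared 31.0% with the Medium sample of replicate 2. Over all replicates, 31197 fragments were in both a positive and a Negative list, which was 15.6% of the 200086 positive fragments and 35.7% of the 87280 Negative ones. The part of this sharing in the results below was not tested. Each test of positive against Negative sets was repeated without the fragments found in both sets of the same replicate. It was also repeated without each replicate. Fragments shared only between different replicates were not taken out. The comparisons with HB were repeated only without each replicate.

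**Figure D1:**
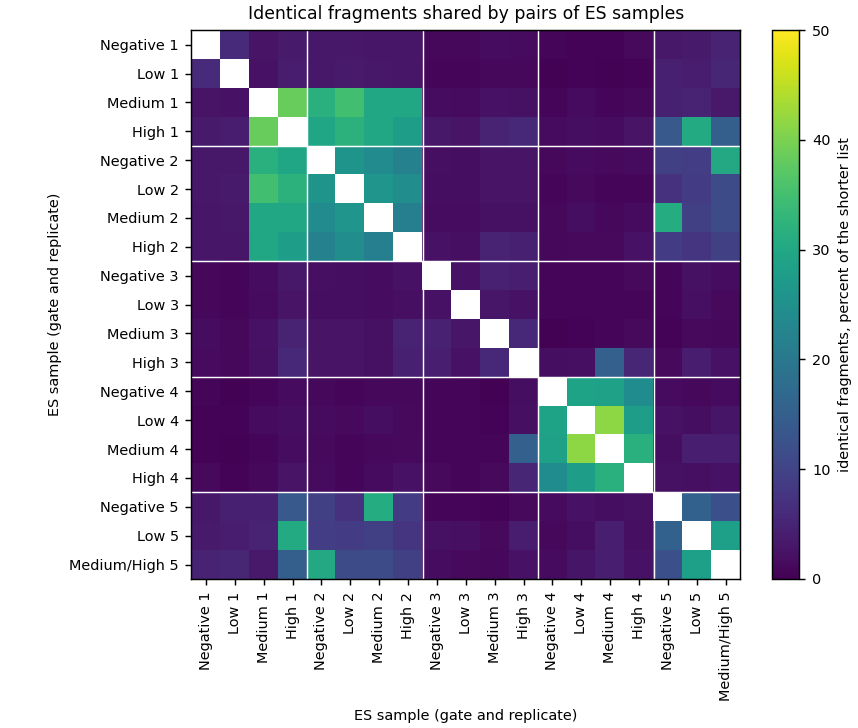
Identical fragments shared by each pair of the 19 ES samples, as a percent of the shorter of the 2 lists; both axes give gate and replicate, and white lines divide replicates. Medium and High of replicate 1, all gates of replicate 2 and parts of replicate 5 form 1 block of high sharing, replicate 4 forms another, and the brightest pair is Low and Medium of replicate 4 at 41.5%.

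The first question was which distal loci scored in ES cells. Overlapping fragments of all stages were merged into sites, 18918 of which held an ES distal fragment. Of these, 16997 were positive in at least 1 replicate, 9294 in at least 2, 3522 in at least 3, 559 in at least 4 and 60 in all 5. For the Negative sets the numbers were 10396, 3450, 995, 101 and 10. The positive sets were longer, and at equal list length, with the longer set thinned at random to the length of the shorter, the numbers were close. Then 1036 distal sites were positive in at least 3 replicates against 995 that were Negative, and 110 against 101 in at least 4. Sites positive in at least 3 replicates numbered 613 without replicate 1, 615 without replicate 2 and 894 without replicate 3, and the Negative ones numbered 143, 113 and 157.

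Promoters recurred more often than distal sites, but their lists held more fragments on fewer and wider sites. The positive lists held 149699 distinct promoter and 50387 distinct distal fragments. The median site width was 850 bp for promoter and 429 bp for distal sites. The part of this density in recurrence was not tested. Of 13562 promoter sites with an ES fragment, 13209 were positive in at least 1 replicate, 8328 in at least 3 and 422 in all 5. The Negative sets held 11670, 4911 and 68. At equal list length 5075 promoter sites were positive in at least 3 replicates and 4911 were Negative, and 76 against 68 did so in all 5. Sites positive in at least 3 replicates numbered 2876 without replicate 1, 2872 without replicate 2 and 3347 without replicate 3, against 1009, 912 and 1087 Negative ones. Sites that were positive in exactly 3 replicates and in no Negative set numbered 299 promoter and 603 distal sites as listed, and 67 and 84 at equal list length. The reverse, Negative in exactly 3 and positive in none, held for 77 promoter and 59 distal sites at equal list length.

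**Figure D2:**
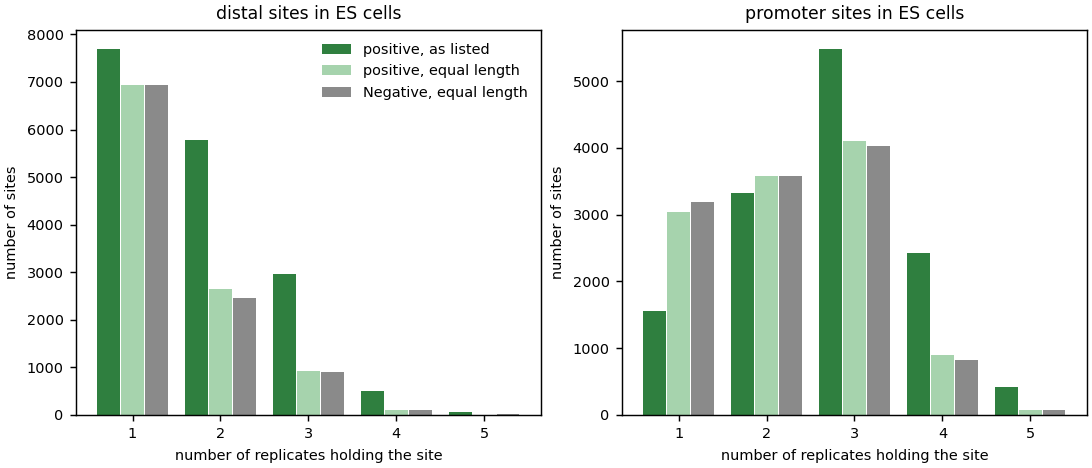
Number of distal (left) and promoter (right) sites held by exactly 1 to 5 replicates, for positive sets as listed (dark green), positive sets at equal list length (light green) and Negative sets at equal list length (grey). The light green and grey bars stay close at each number of replicates, for example 926 and 894 distal sites in exactly 3.

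Each site was then tested with limma on log2 of fragments per 10000 listed fragments of that file type with 1 added, where at least 4 of the 10 sets held a fragment. Of 4151 distal sites, 0 passed an adjusted p of 0.05 (0% called), and 76 had an unadjusted p under 0.05, of which 64 were higher in positive sets and 12 lower. Of 9573 promoter sites, 0 passed (0% called), and 138 had an unadjusted p under 0.05, of which 112 were higher and 26 lower. These 76 distal and 138 promoter sites were fewer than the 208 and 479 that this unadjusted threshold gives by chance. edgeR's quasi-likelihood test with list length as the only scaling also called 0. There the balance of sites at an unadjusted p under 0.05 was turned, with 42 of 131 distal sites higher in positive sets and 89 lower, and 140 of 340 promoter sites higher and 200 lower. At equal list length it was 11 distal sites higher and 13 lower, and 48 promoter sites higher and 40 lower, so no lean towards either gate held across scalings. The sites below are those with the largest contrast in recurrence. None of those tested passed, which does not show that they were alike in both gates. Sites in fewer than 4 of the 10 sets were not tested. A site with 0 in all Negative sets entered the test through its positive sets alone, so its log2 difference and p are given only as description.

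The 6 distal sites with the largest excess of positive over Negative replicates lay near Ap3m2, Lif, Mmd2, Sox12, Gata2 and Nkain1. In the site near Ap3m2, which codes for a subunit of the AP-3 vesicle adaptor, positive replicates 1 to 5 held 2, 2, 1, 1 and 1 fragments and the Negative sets held 0. This site (chr8:22807851-22808654) lay 2229 bp upstream of Ap3m2, over an exon of the neighbouring 1700041G16Rik. Its log2 difference was 2.03 ± 0.80 (SE, n = 5 against 5, limma adjusted p = 1.0). In the site near Lif, the cytokine that keeps mouse ES cells undifferentiated, the positive sets held 2, 1, 1, 1 and 1 fragments and the Negative sets 0. It lay inside the gene, 3765 bp from its nearest start (chr11:4270860-4271643), with a log2 difference of 1.96 ± 0.78 (SE, limma adjusted p = 1.0). In the site inside Mmd2 (chr5:142581412-142582157) each positive set held 1 fragment and each Negative set 0. These 3 sites were listed in all positive sets and no Negative set, with so few fragments that the rate came mainly from the short lists of replicates 4 and 5. The positive sets were longer, and at equal list length 0 distal sites had this pattern.

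The site at Sox12, a SOX-family transcription factor, was the one with the most fragments among the 6. Positive replicates 1 to 5 held 10, 12, 7, 1 and 1 fragments and Negative replicate 2 held 3, with 0 in the other Negative sets. This corresponded to 8.41 ± 5.17 fragments per 10000 in positive and 0.598 ± 1.34 in Negative sets (SD, n = 5), a log2 difference of 2.69 ± 1.07 (SE, limma adjusted p = 1.0). The site (chr2:152396116-152396563) lay 1483 bp from a Sox12 start in GENCODE, so although deposited as distal it was within 1500 bp of an annotated start. The rate of each positive set lay above that of each Negative set. The log2 difference was 1.10 with High and Medium/High samples only and 4.20 with 0.25 added in place of 1.

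The site upstream of Gata2 (chr6:88189371-88190285, 3606 bp from the start) lay near a gene that codes for a transcription factor of blood stem and progenitor cells. Positive replicates 1 to 4 held 8, 6, 2 and 1 fragments, replicate 5 held 0, and all 5 Negative sets held 0. Counted in each gate, so that a fragment in several counts in each, 7 were listed in Low, 3 in Medium and 8 in High samples. Its log2 difference was 1.75 ± 0.72 (SE, limma adjusted p = 1.0), and 4.29 with edgeR and list length only. The same site was positive in 3 replicates and Negative in 1 in HB, and positive in 2 and Negative in 2 in HP. The intergenic site near Nkain1 (chr4:130519978-130520708) held 4, 9, 1, 2 and 1 positive fragments, and 1 fragment in Negative replicate 1. In HB it was positive in 4 replicates and Negative in 4. The Sox12 site, in contrast, was positive in 4 and Negative in 3 HB replicates and was listed in no gate at HE1, HE2 or HP.

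The 4 distal sites with the reverse contrast held few fragments. The site inside Etl4 (chr2:19909350-19910271) held 3, 2, 1, 1 and 1 fragments in the Negative sets and 4, 2, 0, 0 and 0 in the positive sets, a log2 difference of -2.74 ± 1.09 (SE, limma adjusted p = 1.0). It overlapped a GENCODE start of Etl4 although it was deposited as distal. The site in Bin3 near Ccar2 held 2, 2 and 2 fragments in Negative replicates 1 to 3, the site in Ccdc60 held 1, 1 and 2, the site in Nol6 held 1, 1 and 1, and these 3 sites were absent from every positive set. They were in too few sets to be tested. The smallest p in this direction was that of an exonic site 34467 bp from Zfp619, with 5, 4, 3, 4 and 1 Negative and 10, 12, 3, 0 and 0 positive fragments (log2 difference -2.69 ± 1.06, SE, limma adjusted p = 1.0). An intergenic site 39918 bp from Wsb1 held 6, 9, 5, 2 and 2 Negative and 20, 24, 2, 0 and 1 positive fragments, a log2 difference of -1.97 ± 0.86 (SE, limma adjusted p = 1.0). Both sites held more positive than Negative fragments in replicates 1 and 2 and fewer in replicates 4 and 5, and with edgeR on replicates 1 to 3 only, an alternative chosen after seeing the data, their log2 differences were 0.39 and 0.47. Without replicate 4 they were -1.71 and -1.06 in limma. For the Etl4 site edgeR with list length only gave -1.74.

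The smallest p in the positive direction was that of an intergenic site 50265 bp upstream of Tac4 (chr11:95210349-95211264), with 1, 0, 2, 2 and 1 positive and 0 Negative fragments (log2 difference 2.10 ± 0.81, SE, limma adjusted p = 1.0). Distal sites found in all 10 sets scored on both sides of the gate. The site at Chd2, a chromatin remodeller (chr7:73537539-73538474), held 31, 29, 4, 3 and 1 positive fragments and 7, 22, 3, 1 and 1 Negative ones, which was 14.0 ± 7.01 per 10000 in positive and 21.9 ± 15.1 in Negative sets (SD, n = 5). The site at Sptbn1, a spectrin gene, held 12, 25, 1, 5 and 1 positive and 4, 7, 3, 3 and 1 Negative fragments. Both of these sites overlapped a GENCODE start of the gene, although they were deposited as distal. An intergenic site 76165 bp upstream of Chd2 held 19, 13, 4, 1 and 7 positive and 2, 6, 2, 2 and 1 Negative fragments.

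**Figure D3:**
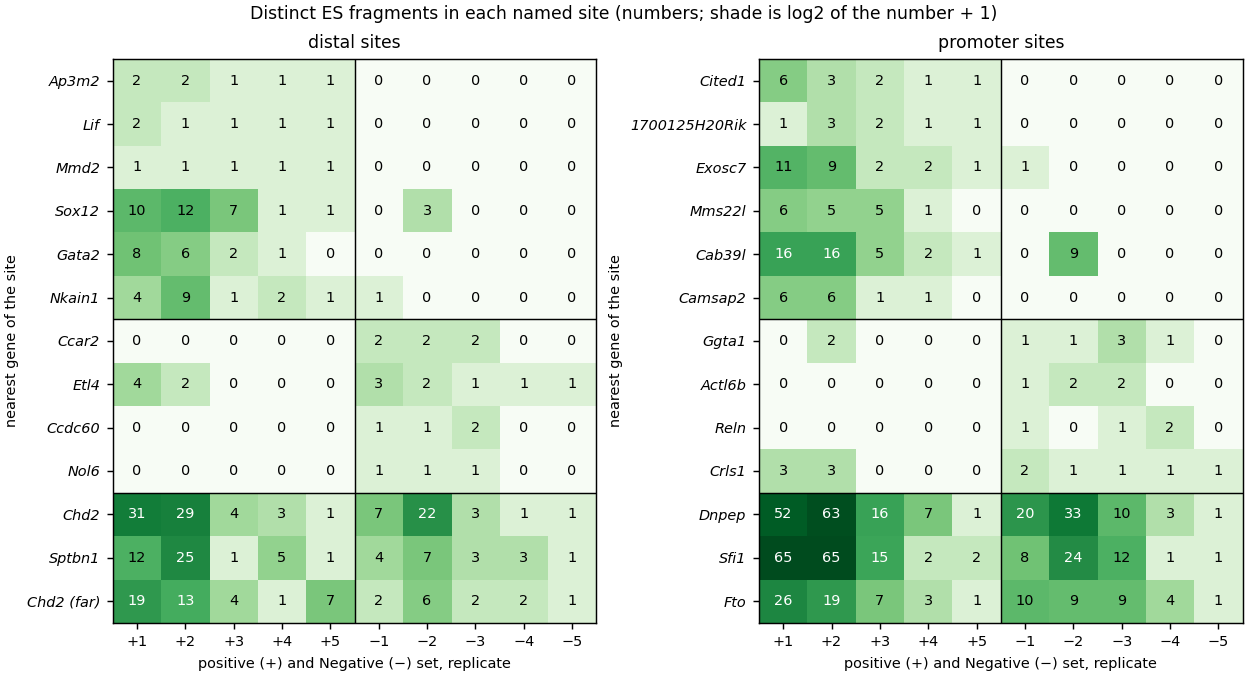
Number of distinct fragments in each named site for positive sets (+1 to +5) and Negative sets (−1 to −5) of replicates 1 to 5, distal sites left and promoter sites right; rows are named by the nearest gene, lines divide sites with most excess in positive sets, most excess in Negative sets and presence in most sets, and shade is log2 of the number with 1 added. The Gata2 row reads 8, 6, 2, 1 and 0 in positive sets and 0 in each Negative set, while the Dnpep row is filled in all 10 sets.

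The second question was which promoters scored. The promoter site of Cited1 (chrX:102251358-102252402), which codes for a transcriptional coactivator, held 6, 3, 2, 1 and 1 fragments in the positive sets and 0 in every Negative set. This was 2.20 ± 2.42 per 10000 promoter fragments in positive sets (SD, n = 5), and its log2 difference of 1.40 ± 0.52 had the smallest p of all promoter sites (SE, limma adjusted p = 1.0). As for other sites with 0 in all Negative sets, the size of the difference hung on the method, and edgeR with list length only gave 3.93. Counted in each gate, 2 fragments were listed in Low, 6 in Medium, 5 in High and 1 in Medium/High samples. In HB the same promoter was positive in 3 replicates and Negative in 1. The promoter of 1700125H20Rik (chr11:85169984-85170543) held 1, 3, 2, 1 and 1 positive and 0 Negative fragments. Promoter sites positive in all 5 replicates and in no Negative set numbered 2 as listed and 0 at equal list length. The site shared by Exosc7, a subunit of the RNA exosome, and Zdhhc3, a palmitoyltransferase (chr9:123112631-123113705), held 11, 9, 2, 2 and 1 positive fragments and 1 Negative fragment, in replicate 1, with a log2 difference of 1.64 ± 0.63 (SE, limma adjusted p = 1.0). Where starts of neighbouring genes share a site, as here, its fragments cannot be assigned to 1 of them.

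The promoter of Mms22l, a gene of replication fork repair (chr4:24495946-24496895), held 6, 5, 5, 1 and 0 positive fragments and none in Negative sets. The promoter of Camsap2, which binds microtubule ends (chr1:136345605-136346469), held 6, 6, 1, 1 and 0 positive and 0 Negative fragments. The site shared by Cab39l and Setdb2 (chr14:59440496-59441467) held 16, 16, 5, 2 and 1 positive fragments and 9 Negative ones, all in replicate 2. Near Znfx1, 59 bp from its start and over exons of the non-coding Zfas1 (chr2:167063074-167063264), the positive sets held 1, 3, 0, 3 and 1 fragments and the Negative sets 0 (log2 difference 1.33 ± 0.51, SE, limma adjusted p = 1.0). In these 4 sites the positive sets of replicates 1 to 4 thus held fragments, apart from replicate 3 near Znfx1, and the only Negative fragments were those of replicate 2 at Cab39l and Setdb2.

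In the reverse direction, the promoter of Crls1, the cardiolipin synthase gene (chr2:132846307-132847138), held 2, 1, 1, 1 and 1 Negative and 3, 3, 0, 0 and 0 positive fragments, a log2 difference of -1.70 ± 0.66 (SE, limma adjusted p = 1.0). The promoter of Ggta1 held 1, 1, 3, 1 and 0 Negative and 0, 2, 0, 0 and 0 positive fragments. The promoters of both neural genes among the 4, Actl6b, a subunit of the neuronal BAF complex, and Reln, the gene of the secreted protein reelin, held 1, 2, 2, 0 and 0 and 1, 0, 1, 2 and 0 Negative fragments and no positive fragment. Both were in too few sets to be tested. Among the smallest p in this direction was also that of Slc39a13, a zinc transporter gene, with 0, 4, 1, 1 and 1 Negative and 5, 1, 1, 0 and 0 positive fragments (log2 difference -1.53 ± 0.66, SE, limma adjusted p = 1.0). Without replicate 5 the differences were -0.90 for Slc39a13 and -1.12 for Crls1. Promoters listed in all 10 sets were led by Dnpep, an aminopeptidase gene, with 52, 63, 16, 7 and 1 positive and 20, 33, 10, 3 and 1 Negative fragments. The site at Sfi1 and Drg1 held 65, 65, 15, 2 and 2 positive and 8, 24, 12, 1 and 1 Negative fragments, and that at Fto and Rpgrip1l held 26, 19, 7, 3 and 1 positive and 10, 9, 9, 4 and 1 Negative fragments.

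Exact fragments recurred far less than sites. Of the distal fragments, 41526 were in 1 positive replicate, 8610 in 2, 241 in 3 and 10 in 4, and of these last 10 only 2 were in no Negative list. Of the promoter fragments, 119844 were in 1 positive replicate, 29196 in 2, 631 in 3, 27 in 4 and 1 in all 5, and that 1 was also in a Negative list. The Zfpm1 fragment shown above was in 7 positive samples of replicates 1, 2 and 4. The Malsu1 fragment, which began 253 bp downstream of the start of this mitochondrial ribosome assembly gene (chr6:49074048-49074284), was in 6 positive samples of replicates 1, 2, 3 and 5. The Gfpt2 fragment, over the start of the gene of a glutamine-fructose-6-phosphate amidotransferase (chr11:49794186-49794441), was in 6 positive samples of replicates 2 to 5. A fragment 614 bp upstream of Orai3, a calcium channel gene, was in 7 positive samples of replicates 1 to 3, and 1 in Tmcc3 was in 6. Among distal fragments, those in an intron of Sptbn1, near Adgrl2 and in Ergic1 were in 6 positive samples of 3 replicates, while those near Sox11, Las1l and in Ciapin1 were in 6 samples of replicates 1 and 2 only.

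Recurrence moved with how often a fragment was read in the plasmid lists. The median number of plasmid reads was 4 for distal fragments in 1 or 2 positive replicates, 21 in 3 and 23 in 4. For promoter fragments it was 3 in 1 replicate, 4 in 2, 23 in 3 and 28 in 4. Fragments identical to a fragment of the HM-1 PCR control, which carried no reporter library, made up 0.466% of promoter fragments in 1 positive replicate, 4.12% of those in 3 and 18.5% (5 of 27) of those in 4, and the 1 fragment in all 5 was also in the control. Of the named fragments, those near Sox11 and in Tmcc3 had 1 control read each, and the others had 0. Plasmid reads ranged from 0 for the Gfpt2 fragment and 2 for the Ergic1 fragment to 355 for the Tmcc3 fragment. The part of plasmid abundance in recurrence was not tested.

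Genes were also viewed by the number of distal sites around them. Of 21842 protein-coding genes, 13110 had at least 1 distal site within 100 kb of a start that was positive in at least 2 replicates (60% called), and 8219 had one that was Negative in at least 2 (37.6% called). Arhgap23 on chromosome 11 had the most, with 22 of 25 sites positive in at least 2 replicates and 12 Negative in at least 2. Its neighbour 4933428G20Rik whose window overlaps that of Arhgap23, had 18 of 21. Sptbn4 had 17 of 24, Myo18a 15 of 21, Actg1, the gene of cytoplasmic gamma-actin, 14 of 17, and Gse1 14 of 19. Rbfox2, a splicing regulator, had 14 of 20 positive and 3 Negative sites, and Arl5c had 13 of 17 positive and 3 Negative sites. At equal list length the positive and Negative numbers were 12 and 12 for Arhgap23, 9 and 8 for Sptbn4, 6 and 8 for Actg1, 7 and 8 for Gse1, 5 and 3 for Rbfox2 and 6 and 3 for Arl5c.

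Gene lists were described by the share of their promoters with a fragment in at least 3 of 5 sets. Over all 21842 protein-coding genes, 9012 had a promoter fragment in at least 3 positive sets (41.3% called) and 5579 in at least 3 Negative sets (25.5% called). At equal list length these were 5745 (26.3% called) and 5579 (25.5% called). The positive count was 3299 without replicate 1, 3294 without replicate 2 and 3783 without replicate 3, and the Negative count 1174, 1069 and 1273. A gene's promoter here was the 1500 bp on either side of any of its annotated starts.

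Promoters of housekeeping genes were in the sets more often than those of all genes, on both sides of the gate. Of all 21842 genes, 8593 (39.3%) had no promoter fragment in any ES set, against 0% to 10.9% of the lists in this paragraph. Presence in the lists at all was not separated from how often a promoter scored. Of 38 DNA replication genes, 33 were positive in at least 3 sets and 22 Negative, and at equal list length the order was turned, with 18 positive and 22 Negative. Gins4, of the replicative helicase, had 45 positive and 22 Negative fragments, Mcm4 45 and 16, Pcna, the sliding clamp, 45 and 14, and Orc6, of the origin recognition complex, 40 and 12. Of 84 cytosolic ribosomal protein genes 62 were positive and 37 Negative, and at equal list length 40 and 37, with Rpl27 at 25, 26, 6, 4 and 0 positive and 2, 14, 0, 0 and 0 Negative fragments. Their fragments made up 83.0 ± 19.6 per 10000 of the positive and 62.2 ± 9.66 per 10000 of the Negative promoter sets (SD, n = 5). For 78 mitochondrial ribosomal protein genes the order was turned, at 71.3 ± 11.3 and 84.7 ± 21.9, and the ranges of both lists overlapped between gates. Proteasome subunits (31 of 39 positive, 20 Negative), translation initiation factors (42 and 29 of 55) and splicing factors (30 and 17 of 39) were also above the share of all genes in both directions. With lists of equal length these 3 had 19 and 20, 29 and 29, and 20 and 17.

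Eif5, which acts in start codon selection, had the most fragments of these genes, with 47, 50, 10, 6 and 1 in the positive and 3, 16, 2, 0 and 2 in the Negative sets. Eif4a1, an RNA helicase of translation initiation, had 38, 36, 12, 4 and 1 positive and 6, 12, 5, 1 and 0 Negative fragments. In the splicing list Srsf2, an SR protein, had 51 positive and 15 Negative fragments, and Prpf4, of the U4/U6 particle, 41 and 16. Psmd5, a proteasome assembly chaperone, had 34 and 11, and Mrpl18, of the large mitochondrial ribosomal subunit, had 59 and 25 and was in all 10 sets. Among MYC, E2F and cell cycle genes, 24 of 30 were positive in at least 3 sets and 16 Negative, and at equal list length 16 and 16. Max, the partner of MYC, had 35, 36, 4, 2 and 3 positive and 3, 8, 2, 0 and 0 Negative fragments, and Trp53 had 29, 25, 8, 1 and 1 positive and 4, 11, 6, 0 and 0 Negative fragments.

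Genes that respond to stimulation or stress were also listed on both sides of the gate. Of 21 immediate early genes, 17 were positive and 14 Negative in at least 3 sets, and at equal list length 13 and 14. Jund, a subunit of AP-1, had 61 positive and 23 Negative fragments and Dusp1, a MAP kinase phosphatase, 44 and 17. Of 22 heat shock genes, 15 were positive and 15 Negative, and at equal list length 10 and 15. Hspa4 had 70 positive and 16 Negative fragments and Hspa2 had 66 and 28. Hspa1b, an inducible heat shock gene, had 3 positive fragments, in replicates 1 and 2, and no Negative fragment. The Hprt promoter, which the integration repairs, had no listed fragment, and no distal site with an ES fragment lay within 100 kb of it. For 61 replication-dependent histone genes, whose clustered starts share fragments, 31 were positive and 18 Negative, and at equal list length 14 and 18.

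Promoters of pluripotency genes were positive about as often as those of all genes, at 18 of 44 (40.9%) in at least 3 positive sets and 9 of 44 (20.5%) in at least 3 Negative sets. At equal list length these were 10 (22.7%) and 9 (20.5%). Klf2, a KLF factor of naive ES cells, led them with 18, 24, 5, 0 and 0 positive and 5, 6, 3, 0 and 0 Negative fragments. Tbx3 had 20, 12, 9, 0 and 0 positive and 1, 9, 2, 0 and 1 Negative fragments, Il6st, the gp130 receptor chain used by LIF, 36 and 11 in all, and Id3, a BMP target, 27 and 15. The best known members were looked at after their values were seen and lie outside the rule for named genes. The promoter of Pou5f1 had 1, 3 and 2 positive fragments in replicates 1 to 3 and no Negative fragment, that of Sox2 had 1 of each, that of Klf4 had 4 of each, that of Esrrb had 3 positive and 2 Negative fragments, and that of Nanog had none.

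A distal site positive in at least 2 replicates lay within 100 kb of 37 of 44 pluripotency genes (84.1%), and a Negative one near 27 (61.4%). The same was so for 33 of 36 germ layer and patterning genes (91.7%) with 26 Negative, 27 of 30 MYC, E2F and cell cycle genes with 15 Negative, and 21 of 21 immediate early genes with 15 Negative, so the share near pluripotency genes was not the highest of the lists. Over all protein-coding genes the shares were 60.0% positive and 37.6% Negative. The positive sets were longer, and no count at equal list length was made for distal sites near these lists. Near Nanog 5 of 9 sites were positive in at least 2 replicates and 1 was Negative in at least 2. Near Esrrb 4 of 6 were positive and 0 Negative, near Klf4 3 of 4 and 1, near Pou5f1 1 of 5 and 1, and near Sox2 1 of 3 and 1. Of all 18918 distal sites with an ES fragment, 9294 were positive and 3450 Negative in at least 2 replicates, and at equal list length 3688 and 3450 of 14822. The site near Lif described above was 1 of 10 in its window, of which 5 were positive and 2 Negative in at least 2 replicates. These genes too were named after their values were seen.

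Cloned fragments at genes of other lineages were also listed in ES samples. Of 36 blood and endothelial genes, 14 had a promoter positive in at least 3 sets and 8 a Negative one, and at equal list length 8 and 8. Hhex, a homeobox gene of early blood and endothelial progenitors, had 11, 12, 3, 1 and 1 positive and 1, 4, 2, 0 and 0 Negative fragments, the only one of the list positive in all 5 replicates. Mecom had 26 positive and 5 Negative fragments, Lyl1 25 and 12, and Cebpa 20 and 7. Gata2 had no promoter fragment, while 7 of its 12 distal sites within 100 kb were positive in at least 2 replicates and 0 were Negative in at least 2. Of all 18918 distal sites with an ES fragment, 9294 were positive and 3450 Negative in at least 2 replicates. The positive sets were longer, and at equal list length this was 3688 and 3450 of 14822 sites. A distal site positive in at least 2 replicates lay within 100 kb of 29 of the 36 genes (80.6%) and a Negative one near 19 (52.8%). Over all protein-coding genes these shares were 60.0% and 37.6%, with no count at equal list length. Of 36 germ layer and patterning genes, 14 promoters were positive and 5 Negative in at least 3 sets, and at equal list length 3 and 5. Msx2 had 17 positive and 7 Negative fragments and Gata6 11 and 10.

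Listed fragments are cloned inserts and do not show the identity of the cells that carried them. Genes of differentiated liver, neuron and muscle made up the last list. Of 28, 4 promoters were positive in at least 3 sets (14.3%) and 2 Negative (7.14%), and 19 had no fragment in either. With lists of equal length 1 was positive (3.57%) and 2 were Negative. Grin1, a glutamate receptor gene, had 11 positive and 6 Negative fragments, Snap25, of the synaptic vesicle machinery, 11 and 2, Gria2 10 and 3, and Syp, synaptophysin, 6 and 0. Their fragments made up 3.23 ± 2.41 per 10000 of positive and 2.12 ± 1.97 per 10000 of Negative promoter sets (SD, n = 5), which overlapped.

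**Figure D4:**
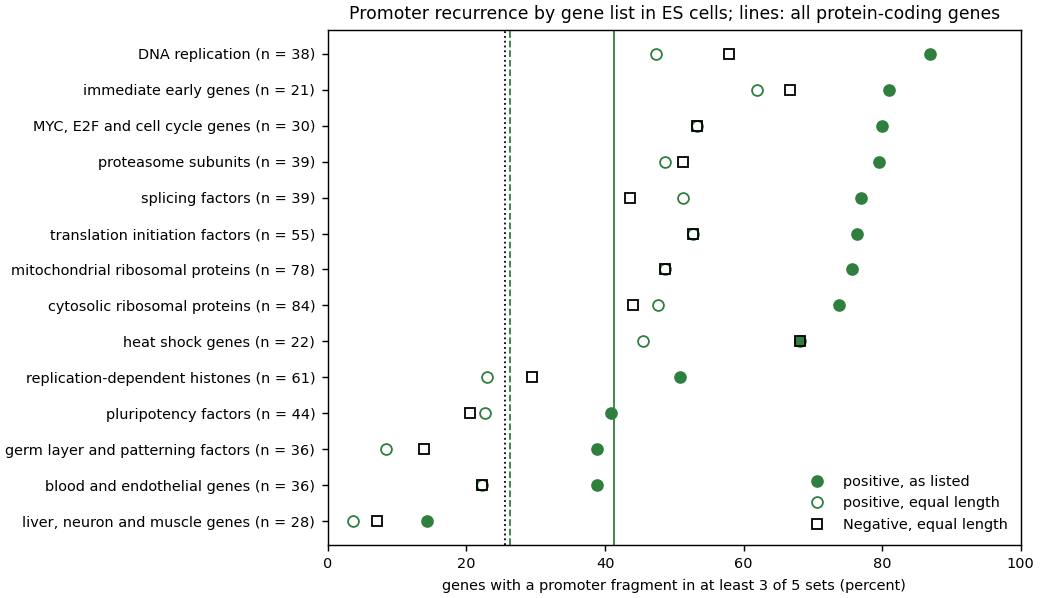
Percent of the genes of each of 14 lists with a promoter fragment in at least 3 of 5 sets, for positive sets as listed (filled green), positive sets at equal list length (open green) and Negative sets at equal list length (open squares); vertical lines give all protein-coding genes (41.3% solid, 26.3% dashed and 25.5% dotted). Housekeeping lists other than histones lie to the right of the lines on both sides of the gate, and the liver, neuron and muscle list lies to the left.

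The third question was whether positive fragments differed from Negative fragments in what they were. For 15 properties, exact two-sided permutation tests of 5 against 5 gave 0 with an adjusted p under 0.05 and 0 with an unadjusted p under 0.05. The distal share was 24.2%, 24.1%, 29.5%, 24.7% and 26.8% in positive replicates 1 to 5 and 24.4%, 22.7%, 27.5%, 25.2% and 25.0% in Negative ones, so the groups overlapped (25.8% ± 2.30 against 25.0% ± 1.73, SD, n = 5, exact permutation p = 0.516, adjusted p = 1.0). Median fragment length was 199.6 ± 11.3 bp against 200.9 ± 15.0 bp in distal and 215.6 ± 12.7 bp against 215.6 ± 9.76 bp in promoter lists. Mean GC content was 57.1% ± 0.58 against 57.3% ± 0.62 in distal lists and 65.6% ± 0.24 against 65.8% ± 0.30 in promoter lists. Promoter fragments thus had the higher GC content and also the higher CpG ratio, 0.793 ± 0.011 observed over expected in positive sets against 0.389 ± 0.018 in distal ones, on either side of the gate.

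Fragments were placed by their midpoint. Of distal positive fragments a mean of 16.6% had it in an exon (14.8% to 18.8%), 41.9% in an intron (39.7% to 42.8%) and 41.5% between genes (40.5% to 42.4%). Of the Negative ones these were 16.2% (14.1% to 17.8%), 40.8% (35.9% to 42.8%) and 43.0% (40.6% to 50.0%). A protein-coding start lay within 50.2% ± 5.12 of positive and 50.3% ± 4.45 of Negative promoter fragments. The share of fragments identical to a plasmid fragment was 82.2% ± 6.44 against 83.4% ± 5.74 in distal and 79.4% ± 7.07 against 81.3% ± 5.71 in promoter lists.

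Of 34 motif tests, 17 motifs in each kind of list, 0 passed an adjusted p of 0.05 and 2 had an unadjusted p under 0.05. The CTCF core (AGGGGGCGC), part of the site of the insulator protein CTCF, was in 2.33%, 2.32%, 2.43%, 2.20% and 2.22% of positive and 2.34%, 2.52%, 2.64%, 2.85% and 4.09% of Negative distal fragments. It was lower in positive sets in 5 of 5 replicates, with a mean difference of -0.586 percentage points (exact permutation p = 0.0159, adjusted p = 0.540). The highest share was that of Negative replicate 5, the shortest list, and without replicate 5 the difference was -0.265 percentage points. The GATA motif (AGATAAG) was in 2.00%, 1.87%, 1.96%, 1.57% and 1.37% of positive and 2.34%, 2.13%, 2.42%, 2.38% and 1.82% of Negative distal fragments, also lower in 5 of 5 replicates (exact permutation p = 0.0397, adjusted p = 0.675). Among fragments with an identical plasmid fragment the GATA difference was -0.286 percentage points, against -0.463 over all fragments. The GC box was in 8.16% ± 0.77 of positive and 9.52% ± 1.82 of Negative distal fragments, lower in 5 of 5 replicates (SD, n = 5, exact permutation p = 0.167, adjusted p = 0.938).

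Motifs of the ES cell factors did not separate the gates. The octamer (ATGCAAAT), bound by POU5F1 and POU2F1, was in 1.26% ± 0.44 of positive and 1.21% ± 0.35 of Negative distal fragments, higher in positive sets in 2 of 5 replicates (SD, n = 5, exact permutation p = 0.810, adjusted p = 0.968), and without replicate 4 the difference was -0.228 percentage points. The OCT-SOX composite core (TTGTNATGC) was in 0.515% ± 0.137 and 0.560% ± 0.120, and the ESRRB site (TCAAGGTCA) in 0.402% ± 0.165 and 0.604% ± 0.299. In promoter fragments the GC box, the most frequent of the 17, was in 25.4% ± 2.22 of positive and 25.3% ± 2.24 of Negative ones, and the CCAAT box in 16.6% ± 1.16 and 16.3% ± 0.80. A match of these letters is a description of the fragment and not a bound site.

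ES cells were last set against HB, the FLK1-positive stage that follows, sorted into the same gates in 19 samples. The positive-minus-Negative differences of 49 properties and motifs were compared between the stages by exact two-sided permutation. None passed an adjusted p of 0.05, 0 of 15 properties and 0 of 34 motifs. The smallest p, 0.00794, is the smallest that 5 against 5 can give. It belonged to the RUNX motif (TGTGGTTT) in promoter fragments, with a difference of 0.072 ± 0.073 percentage points in ES cells and -0.164 ± 0.183 in HB (SD, n = 5, exact permutation adjusted p = 0.270).

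The motif shares themselves, a comparison chosen after values were seen, were then set side by side between stages within each gate. GATA motifs were in 1.37% to 2.00% of ES positive distal fragments and in 3.37% to 4.39% of HB positive ones, so the stages did not overlap (1.75% ± 0.27 against 3.78% ± 0.47, SD, n = 5, exact permutation p = 0.00794, adjusted p = 0.0899). In Negative sets the shares were 1.82% to 2.42% in ES cells and 3.41% to 5.70% in HB (exact permutation p = 0.00794, n = 5, adjusted p = 0.0899). AP-1 motifs went the other way in positive sets, with 8.50% to 8.89% in ES cells and 6.10% to 7.50% in HB, as did CCAAT boxes with 7.60% to 11.1% and 6.50% to 7.36%. In Negative sets the stages overlapped for both, with AP-1 at 5.91% to 9.37% in ES cells and 6.83% to 8.28% in HB, and CCAAT boxes at 8.37% to 9.09% and 7.10% to 8.97%. ETS motifs were also apart in positive distal sets only, at 0.847% to 1.65% in ES cells and 0.527% to 0.812% in HB. TEAD motifs were apart in Negative distal sets only, at 3.31% to 5.45% and 1.81% to 3.09%. No motif of the 68 comparisons passed an adjusted p of 0.05, and with 5 against 5 the smallest p possible did not suffice here. The sources do not say whether the lists of a stage were filtered against the open chromatin of that stage alone, and the part of such a filter in these shares was not tested.

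**Figure D5:**
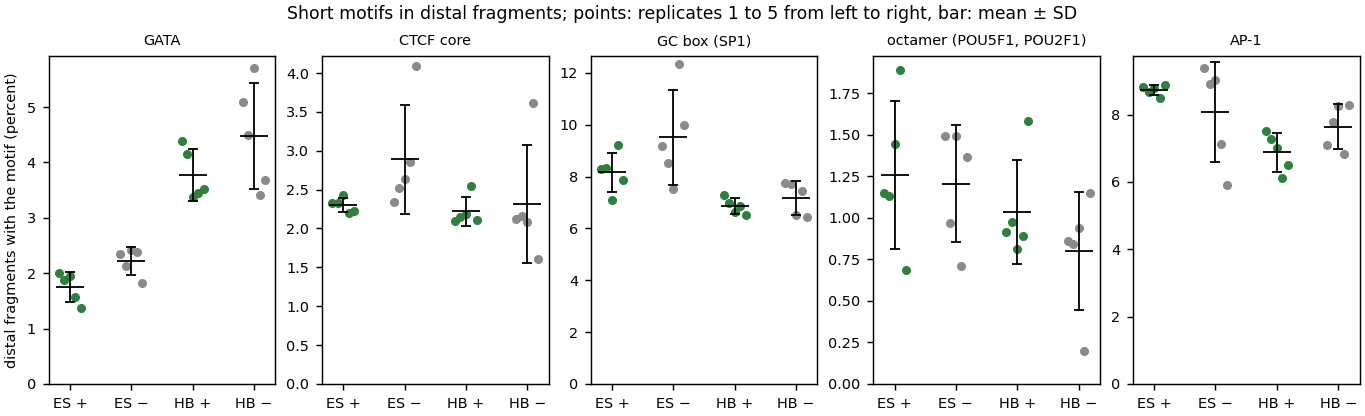
Percent of distal fragments that hold the GATA, CTCF core, GC box, octamer or AP-1 motif in positive (+, green) and Negative (−, grey) sets of ES and HB; points are replicates 1 to 5 from left to right, and bars give mean ± SD (n = 5). The GATA panel splits by stage, with all ES sets at or below 2.42% and all HB sets at or above 3.37%. Between gates the ranges overlap in both stages, although the ES positive set was lower in 5 of 5 replicates. In HB the mean positive-minus-Negative difference was -0.702 ± 0.950 percentage points (SD, n = 5).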

How the data were processed

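Distinct reporter fragments from sorted cells were read from the deposited interval lists. Per the labels and the methods, the authors used TrimGalore for trimming and Bowtie2 for mapping to mm10, kept pairs of high mapping quality, removed duplicates and filtered the fragments against HM-1 control lists, plasmid lists and open chromatin peaks. The processing notes also name SAMtools, bedtools and HOMER. As deposited, the lists from sorted cells carry no count, and the plasmid and HM-1 control lists with a whole-number count of reads for each fragment, not normalised. PCR of sorted DNA can lose or favour fragments, and a fragment read once weighs the same as one read often. The filters were not repeated here.

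Sorted starts count from 1 and plasmid starts from 0. Of 20000 fragments drawn, 80.3% matched a plasmid fragment after a shift by 1 bp and 3.45% as deposited. Overlapping fragments of all stages were merged within each kind of list into 58911 distal and 17854 promoter sites, with a median width of 429 and 850 bp for those in ES cells. Entries on unplaced sequences (1042) were left out. Sites were annotated with GENCODE vM21, and sequences were read from RefSeq GRCm38.p6. Sites were tested with limma 3.58.1 (lmFit, eBayes with trend) in R 4.3.3, and edgeR 4.0.16 on numbers of fragments was an alternative. Single values were compared by exact two-sided permutation in Python 3.11.15, with Benjamini-Hochberg adjustment within each family. Tests were checked on simulated data, in which limma called part of the sites given a large difference and none of those given a moderate one.

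Named sites were the 6 with the largest excess of positive over Negative replicates, the 4 with the reverse, the 3 in most sets and, as none passed, the 3 smallest p in each direction, for each kind of list, 1 of which is not reported here. Named fragments were the 6 in most positive and no Negative samples, named genes the 4 of each list with most positive promoter fragments and the 8 with most distal sites. The members, gene lists and motifs were chosen with earlier results of these data known.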

Additional observations from a re-analysis of the deposited data

Results flagged for a closer look

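In groups of 5 sets, a value was marked where the gap from the highest or lowest set to the next was more than 0.71 of the whole range, which chance gives in about 1 of 20 groups. Of 98 groups, 19 were marked (19.4%), 15 at replicate 4 and 4 at replicate 5, both of which have short lists, and 0 at replicates 1 to 3.

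In promoter fragments of positive replicate 4 the median length was 238 bp against 207 to 213 bp in the other positive sets, and 59.2% held a protein-coding start against 46.4% to 48.6%. In Negative replicate 4 that share was 58.0% against 47.0% to 49.3%. Several promoter motifs were highest in positive replicate 4. The GC box was in 29.2% (others up to 24.9%), the E-box in 9.89% (up to 7.50%), KLF in 9.30% (up to 7.69%), ETS in 7.93% (up to 4.63%), YY1 in 3.62% (up to 2.10%), NRF1 in 2.79% (up to 1.97%), the CTCF core in 2.61% (up to 1.85%), BANP in 2.22% (up to 1.09%) and GATA in 0.930% (up to 0.706%). In Negative replicate 4 the E-box was in 9.37% of promoter fragments (others up to 7.63%) and the CTCF core in 3.04% (up to 1.91%), and ETS was in 2.14% of distal fragments (up to 0.909%). Replicate 4 was thus apart on both sides of the gate. What sets it apart was not tested.

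In replicate 5, intronic fragments made up 39.7% of the positive and 35.9% of the Negative distal sets, the lowest of each group, and intergenic fragments 50.0% of the Negative set, against at most 42.0% in the others. NRF1 was in 1.03% of its positive distal fragments, against at most 0.630% in the others.

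For 3 measures the positive-minus-Negative difference was not alike in ES cells and HB at an unadjusted exact permutation p under 0.05, and none passed adjustment. The ES minus HB contrast was 0.236 percentage points for the RUNX motif in promoters (exact permutation p = 0.00794, adjusted p = 0.270), -0.316 for the promoter CTCF core (p = 0.0397, adjusted p = 0.607) and -2.79 for the share of promoter fragments with a plasmid match (p = 0.0476, adjusted p = 0.340).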

How the results depend on the processing

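The number of sites past an adjusted p of 0.05 was 0 in distal and promoter lists under all alternatives run. These were 0.25 added in place of 1, at least 2 or at least 6 of 10 sets, and edgeR with TMM factors or list length only. Others were High and Medium/High samples only, bins of 500 bp, and fragments in both sets of the same replicate left out. Equal list length and each replicate left out were also run, as was edgeR on replicates 1 to 3, which was chosen after seeing the data. With a replicate block the count was 0 in limma and in edgeR, and the replicate block changed no other call. Deviations of same-numbered sets from the group means correlated at 0.068 to 0.280 in distal and 0.097 to 0.306 in promoter lists, not all above 0.1. In replicates 2 to 5 this was above the highest correlation with another number, and in replicate 1 it was below. The main tests did not take the numbers as pairs, and the replicate block is the paired form of the tests between gates. The smallest adjusted p of any site in any of these fits was 0.286. Counts of properties and motifs past the threshold were 0 under all alternatives, and the replicate block (an exact sign-flip test, which 5 pairs are too few to take past the threshold) also gave 0. For ES against HB they were 0 without each replicate.

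Of 284 values of named sites under an alternative, 280 kept their sign. The site near Wsb1 turned to 0.023 with edgeR and TMM factors, 0.046 with the replicate block in edgeR and 0.47 with edgeR on replicates 1 to 3, where the site near Zfp619 turned to 0.39. The distal octamer difference ran from -0.228 to 0.236 percentage points as replicates were left out. Sites positive in at least 3 replicates moved to 1036 distal and 5075 promoter sites at equal list length. With each replicate left out they ran from 613 to 3349 distal and from 2872 to 8128 promoter sites, and Negative ones from 113 to 952 and from 912 to 4774. Genes with a promoter fragment in at least 3 sets ran from 3294 to 8815 positive and from 1069 to 5428 Negative, moved to 5745 positive at equal list length, and to 9162 Negative when 2 replicates sufficed. List length, 880 to 103317 fragments per set, limits what replicates 4 and 5 can show.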
